A study of Mus musculus with 20 samples.

Results

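In Ts1Cje mouse embryos whose parents ate apigenin, the forebrain held more RNA of dividing cells and neural progenitors and less RNA of synapses, neurotransmitter receptors and ion channels than in Ts1Cje embryos on plain chow. The comparison sets 5 Ts1Cje apigenin arrays against 5 Ts1Cje plain chow arrays, chosen by the genotype and treatment that the labels give each sample, from 20 arrays in all. Each array, an Affymetrix Mouse Gene ST 1.0, carried the RNA of the forebrain of 1 embryo, and all 20239 probe sets with 1 gene symbol were tested. Ts1Cje males were crossed with C57Bl/6J females, so each Ts1Cje embryo carried 1 translocated extra copy of distal chromosome 16 beside its normal pair. The parents ate purified powdered chow, either plain or with 2 g of apigenin per kg, from mating until collection. The labels put this at 333 to 400 mg per kg per day. They give the age as embryonic day 15 and the collection protocol as E15.5. The 10 embryos used for comparison were WT, from the same kind of cross, 5 on each chow. Apigenin reached the embryos only through their mothers, and its level in embryonic tissue is not analysed here.

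Apigenin is a flavone of parsley, celery and chamomile with anti-inflammatory and antioxidant actions in cultured cells. Ts1Cje is a mouse model of Down syndrome, because many genes of human chromosome 21 have their mouse counterparts on this distal part of chromosome 16. At this age the wall of the forebrain is making cortical neurons. Radial glia line the ventricle and divide as stem cells, intermediate progenitors arise from them and divide again, and the neurons they produce migrate outward, grow axons and begin to switch on genes of synapses. Bulk RNA of this tissue is a mixture of all these cells, so more or fewer cells of a type and more or less RNA per cell cannot be told apart in any of the results.

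The 10 Ts1Cje arrays were alike in scale (median log2 level 7.84 to 7.88 per array), and every pair correlated at 0.993 to 0.997 across genes. The mean level of the trisomic segment lay at 8.67 to 8.71 in the 10 Ts1Cje embryos and at 8.40 to 8.44 in the 10 WT embryos, so it separated the genotypes as labelled. Tbr1, a factor of cortical neurons, and Dlx1, a factor of the ventral forebrain, were bright in all 10 Ts1Cje embryos, at 11.03 to 11.35 and 11.10 to 11.47. The Y-linked genes measured were high in 3 and low in 2 embryos of either Ts1Cje group. The embryo numbers in the titles run from 93 upward in the Ts1Cje plain chow group. In the Ts1Cje apigenin group they run from 1 to 58. Chow cannot be told apart from embryo number, or from a difference between the groups in litter or in stage within embryonic day 15. The labels name no litter or dam, so embryos of 1 chow may be siblings, and the p-values rest on the variation among these embryos alone. The number of arrays limits the precision of every value.

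Of the 20239 genes, 3291 (16.3%) differed between the chows in Ts1Cje embryos, 1638 (8.09%) higher and 1653 (8.17%) lower on apigenin (limma, two-sided, Benjamini-Hochberg adjusted p under 0.05). These shares are the background for every count of a gene list below. Most differences were small. The median size among the genes that passed was 0.214 on the log2 scale, 1016 of them passed 1.2-fold, 30 passed 1.5-fold and 1 passed 2-fold. The 5 values on apigenin lay wholly above or wholly below the 5 on plain chow in 2930 genes (14.5%), and in 2479 (75.3%) of the genes that passed. Bright genes passed more often: of the dimmest 20% of genes 1.51% passed, and of the brightest 20% 29.9%. The genes that passed were spread over the genome, with 12.4% to 18.9% of the genes of each of 20 chromosomes and 16.2% of chromosome 16. The median log2 fold change over all genes was 0.00605. Of the 325 genes named here as changed in Ts1Cje, 250 kept their call under every alternative tried. Leaving out 1 array ended the call of 64, all with an adjusted p of 0.016 or more, and the small counts of some lists below move with them.

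**Figure D1:**
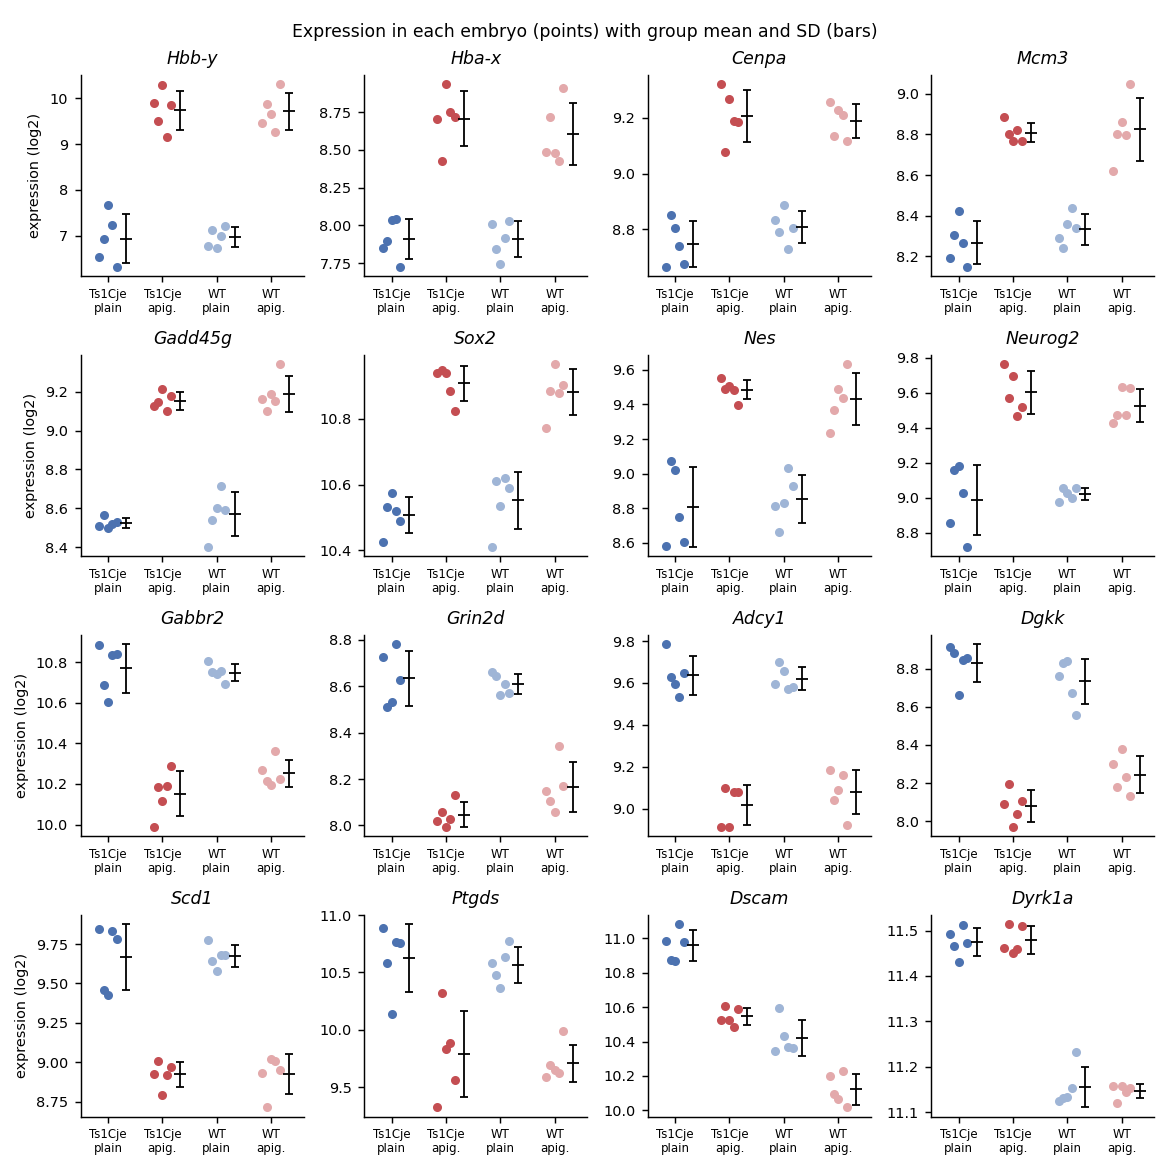
Expression (log2) of 16 genes in each embryo, with the group mean and SD beside the points (n = 5 per group). Hbb-y, progenitor and cell cycle genes such as Cenpa, Sox2, Nes and Neurog2 lie higher and Gabbr2, Grin2d, Adcy1, Dgkk and Scd1 lie lower in all 5 Ts1Cje apigenin embryos than in any Ts1Cje plain chow embryo, and Dyrk1a overlaps between chows.

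The largest change of all was in an embryonic globin. Hbb-y, the beta-type globin of primitive red cells of the yolk sac, read 6.53, 6.92, 7.67, 7.23 and 6.32 (log2) in the Ts1Cje plain chow embryos and 9.90, 9.51, 10.30, 9.16 and 9.85 on apigenin. The groups did not overlap, and the gene was 7.02-fold higher (log2 fold change 2.81 ± 0.24 SE, limma adjusted p = 1.2e-06). Its alpha-type partner of primitive red cells, Hba-x, read 7.85, 7.90, 8.04, 8.04 and 7.72 against 8.70, 8.42, 8.94, 8.75 and 8.72. It was 1.74-fold higher (0.80 ± 0.10, limma adjusted p = 1.9e-05), again without overlap. The adult globin Hbb-b1 lay at 10.61 to 10.78 on plain chow and 10.22 to 10.95 on apigenin and did not pass (-0.03 ± 0.13, adjusted p = 0.93). The other embryonic beta-type globin, Hbb-bh1, was dim at 4.83 to 5.29 against 5.05 to 5.72 and did not pass either (0.19 ± 0.11, adjusted p = 0.26). Globin genes are close copies of each other, and how well the probe sets part them was not tested.

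Other genes of red cells did not follow the embryonic globins. Of 22 measured red cell genes 2 rose, 3 fell and 17 did not pass, with a median of 0.02. Their mean level lay at 6.97 to 7.09 on plain chow and 6.97 to 7.06 on apigenin. These levels are below the array medians of 7.84 to 7.88, and dim genes passed less often, so changes in this list may be understated or missed. The risers were Cd36, a fatty acid transporter of several cell types (0.23), and Bpgm, which makes the regulator of haemoglobin's oxygen affinity (0.20), and only 1 of them passed without apigenin replicate 3 or 5 or plain chow replicate 1, 3 or 4. The fallers were the membrane skeleton genes Sptb (-0.36) and Ank1 (-0.25), which neurons also express, and Tmcc2 (-0.30). Alas2, the first enzyme of haem synthesis in red cells, was at -0.24 (adjusted p = 0.16), and Klf1, the master regulator of red cell genes, at 0.12 (adjusted p = 0.347).

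**Figure D2:**
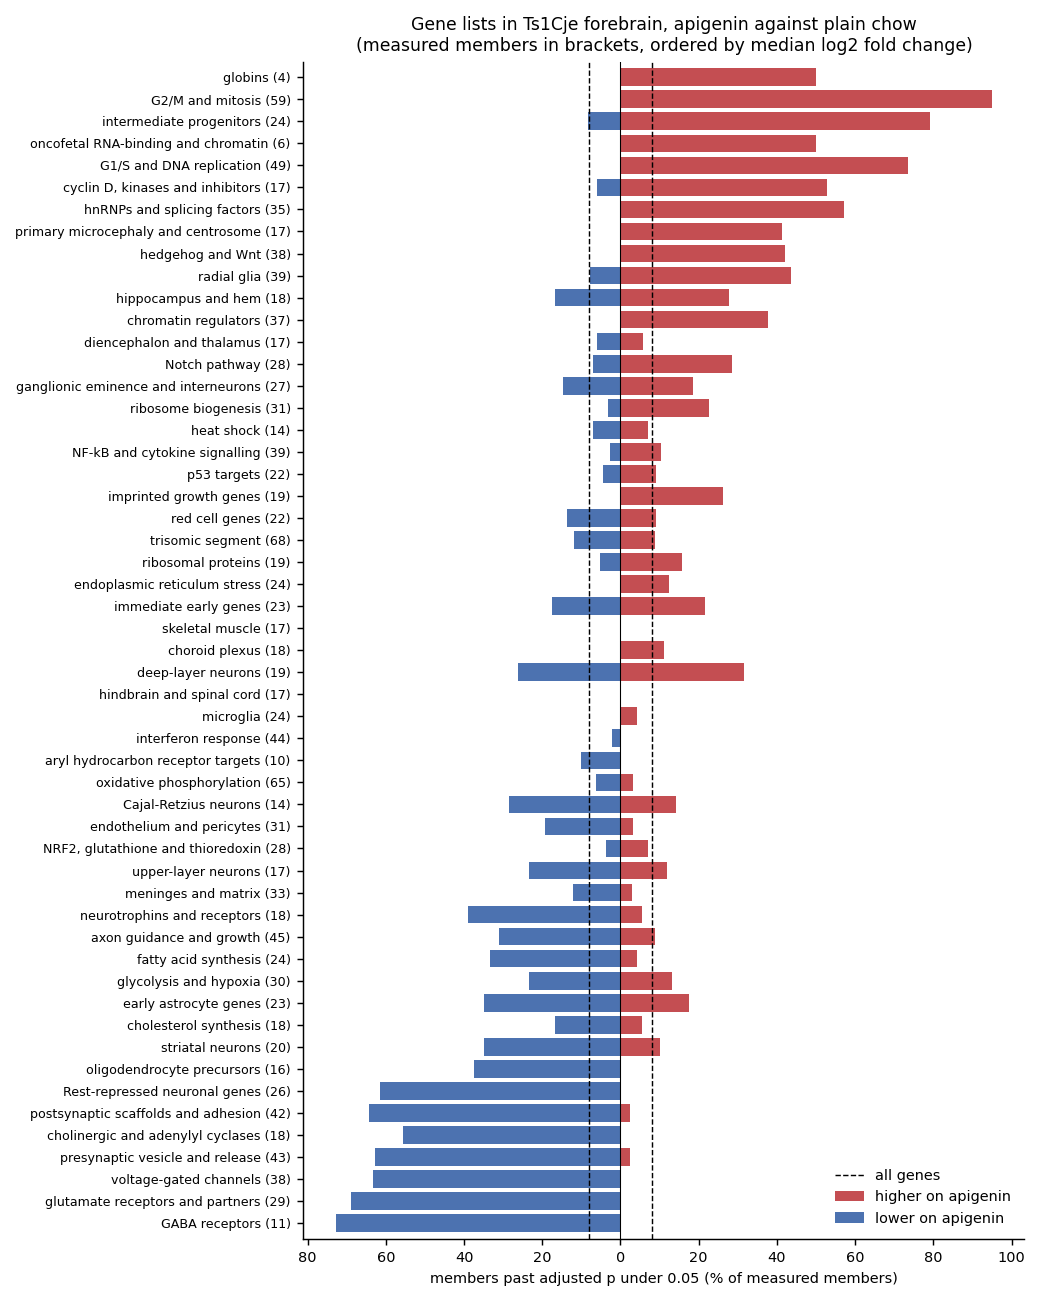
Share of the measured members of 53 gene lists that passed an adjusted p under 0.05 in Ts1Cje embryos, higher (red, to the right) or lower (blue, to the left) on apigenin, with the number of measured members in brackets and the lists ordered by median log2 fold change. The dashed lines are the shares of all genes, 8.09% higher and 8.17% lower; lists of the cell cycle and of progenitors lie at the top and lists of receptors, channels and synapses at the bottom.

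Genes of mitosis rose almost as a whole. The G2/M list held 59 measured genes, of which 56 rose, 0 fell and 3 missed the threshold (Cdc25b, Bub3 and Kif14, all above 0), with a median of 0.38. In 49 of the 59 the 2 groups of embryos did not overlap. Cenpa, the histone H3 variant that marks centromeres, read 8.67, 8.85, 8.81, 8.74 and 8.67 on plain chow against 9.32, 9.08, 9.27, 9.19 and 9.18 on apigenin, a rise of 0.46 ± 0.05 (limma adjusted p = 7.4e-06). Ect2, the exchange factor that starts cytokinesis, read 8.85, 9.00, 9.15, 9.04 and 8.81 against 9.66, 9.52, 9.58, 9.42 and 9.52. It rose by 0.57 ± 0.06 (adjusted p = 9.1e-06). For both genes the highest plain chow embryo lay below the lowest apigenin embryo. Spc24, of the kinetochore, rose by 0.40 ± 0.05, and Kif11 (0.47), the motor that parts the spindle poles, Prc1 (0.50), which bundles the central spindle, Racgap1 (0.44), a partner of Ect2, and Kif2c (0.53), a microtubule depolymerase, rose beside it. Rcc2, a regulator of chromosome condensation and cytokinesis outside the list, rose by 0.37 ± 0.04.

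Genes of DNA replication rose as well, with more members left out. The G1/S list held 49 measured genes, of which 36 rose, 0 fell and 13 did not pass, with a median of 0.22. Mcm3, a subunit of the replicative helicase, read 8.19, 8.31, 8.42, 8.27 and 8.15 on plain chow against 8.89, 8.80, 8.77, 8.82 and 8.77 on apigenin (0.54 ± 0.06, limma adjusted p = 1.6e-05). Mcm2, of the same ring, read 8.95, 9.08, 9.07, 8.99 and 8.92 against 9.46, 9.36, 9.47, 9.41 and 9.31 (0.40 ± 0.04, adjusted p = 9.6e-06). Neither gene's groups overlapped. Rrm2, the limiting subunit of ribonucleotide reductase, rose by 0.53, Uhrf1, which carries DNA methylation through replication, by 0.52, and Brca1, of DNA repair, by 0.42. Rad54l, of recombination repair, rose by 0.51 ± 0.06.

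The mean level of the G2/M list was 8.52, 8.71, 8.76, 8.67 and 8.48 in the plain chow embryos and 9.06, 8.93, 9.07, 8.94 and 8.96 on apigenin. Replicates 1 and 5 on plain chow lay lowest. The same 2 embryos were lowest for the G1/S list, at 8.43 and 8.40 against 8.49 to 8.53 in the rest of their group and 8.67 to 8.75 on apigenin. They were also the 2 lowest of their group for Hbb-y.

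Some controls of the G1 phase, both drivers and inhibitors of division, and some genes of primary microcephaly also rose. Of 17 measured cyclin D genes, their kinases and their inhibitors 9 rose, 1 fell and 7 did not pass (median 0.20). The risers were the cyclins Ccnd2 (0.39) and Ccnd1 (0.31), their kinases Cdk6 (0.38) and Cdk4 (0.20), Cdk2 (0.36), the pocket protein Rbl1 (0.38), the p27 inhibitor of cyclin kinases Cdkn1b (0.23) and the antiproliferative genes Btg1 (0.27) and Btg2 (0.47). The faller was Cdkn1a, the p21 inhibitor of cyclin kinases, with 9.23, 8.79, 8.84, 9.32 and 9.17 on plain chow against 8.33, 8.56, 8.63, 8.49 and 8.87 on apigenin. Apigenin replicate 5 overlapped the plain chow values, and the gene fell by 0.49 (SE 0.11, limma adjusted p = 0.0039). Of 17 genes of primary microcephaly and the centrosome 7 rose, 0 fell and 10 did not pass (median 0.15). Nde1, a dynein regulator whose loss leaves a small cortex, rose by 0.45 ± 0.05, and Stil (0.42), Aspm (0.38), Knl1 (0.37), Cenpj (0.27), Cep152 (0.22) and Pcnt (0.17) rose with it.

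The promoters of these genes are shown because genes of the G1/S and G2/M phases are known for different elements, the E2F site and the CHR element that the DREAM complex binds. The sequences are RefSeq promoters of the GRCm38.p6 assembly, 250 bases before to 50 after a gene's start, 5′ to 3′ on the gene's strand. Capitals mark the E2F core (TTTCCCGC or TTTGGCGC, either strand) in Mcm3, at chr1:20820263-20820562 on the minus strand, and the CHR element (TTTGAA, either strand) in Cenpa, at chr5:30666636-30666935 on the plus strand.
Mcm3: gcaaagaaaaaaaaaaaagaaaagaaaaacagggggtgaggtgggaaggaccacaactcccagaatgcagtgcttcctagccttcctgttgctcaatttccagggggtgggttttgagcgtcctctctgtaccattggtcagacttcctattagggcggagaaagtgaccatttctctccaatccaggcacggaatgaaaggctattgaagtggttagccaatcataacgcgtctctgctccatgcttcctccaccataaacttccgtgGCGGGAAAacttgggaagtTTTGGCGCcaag
Cenpa: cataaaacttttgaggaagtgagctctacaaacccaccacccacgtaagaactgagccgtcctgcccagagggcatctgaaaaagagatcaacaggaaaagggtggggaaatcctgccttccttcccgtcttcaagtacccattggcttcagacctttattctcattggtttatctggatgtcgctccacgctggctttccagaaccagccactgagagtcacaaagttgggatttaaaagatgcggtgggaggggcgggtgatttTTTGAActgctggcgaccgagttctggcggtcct
The E2F core lay in 10 of 38 promoters (26.3%) of the G1/S genes that rose, for 31 of the 36 genes matched, against 514 of all 32851 promoters (1.56%) and 2.18% of those of the genes tested. In the G2/M genes that rose it lay in 8.16% of promoters. The CHR element lay in 35 of 49 promoters (71.4%) of the G2/M genes that rose, for 46 of 56 genes matched, against 17.9% of all promoters, 14.9% of those of the genes tested and 18.4% of those of the G1/S genes that rose. CCAAT, on either strand, lay in 73.5% of the G2/M and 60.5% of the G1/S promoters against 37.4% of all. None of the 3 motifs contains another. A match is a description of the letters in this window and not a measured site. Genes of these phases are known for these elements whatever the chow, and no share was taken for the members that did not rise. The shares therefore describe the lists and not the response to apigenin.

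Genes of neural progenitors rose beside those of the cell cycle. Of 24 measured genes of intermediate progenitors 19 rose, 2 fell and 3 did not pass, with a median of 0.29. Gadd45g, a growth arrest gene switched on as progenitors commit to neurons, read 8.51, 8.56, 8.50, 8.52 and 8.53 on plain chow against 9.13, 9.15, 9.22, 9.10 and 9.18 on apigenin. The 2 groups lay far apart beside their spread, and the rise of 0.63 ± 0.05 had the smallest p of all genes that rose (limma adjusted p = 1.2e-06). Neurog2, the proneural factor of cortical progenitors, read 8.86, 9.16, 9.18, 9.03 and 8.72 against 9.77, 9.57, 9.70, 9.47 and 9.52 (0.61 ± 0.08, adjusted p = 2.5e-05), without overlap. Nhlh1 rose by 0.54, the peroxisomal transporter Abcd2 by 0.52, the glypican Gpc2 by 0.38, Rhbdl3 by 0.36 and the Notch ligand Dll1 by 0.29. Eomes, the factor that defines these cells, rose by 0.40. The fallers were Kif26b, an unconventional kinesin (-0.35), and Tac2, a neuropeptide precursor (-0.32).

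Radial glia genes rose in part. Of 39 measured members 17 rose, 3 fell and 19 did not pass (median 0.14). Sox2, the stem cell factor, read 10.43, 10.53, 10.58, 10.52 and 10.49 against 10.94, 10.95, 10.94, 10.89 and 10.83 (0.40 ± 0.05, limma adjusted p = 1.1e-05). Nes, an intermediate filament of neural stem cells, read 8.58, 9.07, 9.02, 8.75 and 8.61 against 9.55, 9.49, 9.50, 9.48 and 9.40 (0.68 ± 0.09, adjusted p = 5.3e-05). The groups did not overlap in either gene, and the plain chow embryos were spread more widely in Nes. Tead2 (0.50), a Hippo pathway factor, Id4 (0.43) and Nr2e1 (0.43), which keep stem cells undifferentiated, Pax6 (0.42), the cortical patterning factor, and Vim (0.29) rose with them. The fallers were Tnc, Fam107a (-0.17) and Lifr (-0.15), of which 1 passed without plain chow replicate 3. Tnc, a matrix protein of astrocytes and outer radial glia, read 10.58, 10.47, 10.52, 10.60 and 10.59 on plain chow against 9.90, 10.11, 10.12, 10.12 and 10.30 on apigenin (-0.44 ± 0.06, adjusted p = 4.9e-05).

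Genes of signalling among progenitors rose in part. In the Notch pathway, through which a committing cell holds its neighbours back, 8 of 28 measured genes rose and 2 fell (median 0.07). The ligands Dll1 and Dll3 (0.30), the effector Hes1 (0.39), the feedback inhibitor Nrarp (0.45), Numb (0.32), the glycosyltransferase Mfng (0.29), the ubiquitin ligase Mib1 (0.20) and Hes6 (0.23) were the risers, and Dtx1 (-0.30), an E3 ligase, and the ligand Jag2 (-0.24) fell. In hedgehog and Wnt signalling 16 of 38 measured members rose and 0 fell (median 0.14). They included the hedgehog co-receptors Cdon (0.40) and Boc (0.23) and the hedgehog effectors Gli3 (0.30) and Gli2 (0.26). Also among them were the Wnt ligand of the hippocampal field Wnt8b (0.52) and the Wnt receptors Fzd2 (0.30) and Fzd3 (0.19). The Wnt amplifier Rspo3 (0.32) and the repressor Tcf7l1 (0.33) rose too.

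**Figure D3:**
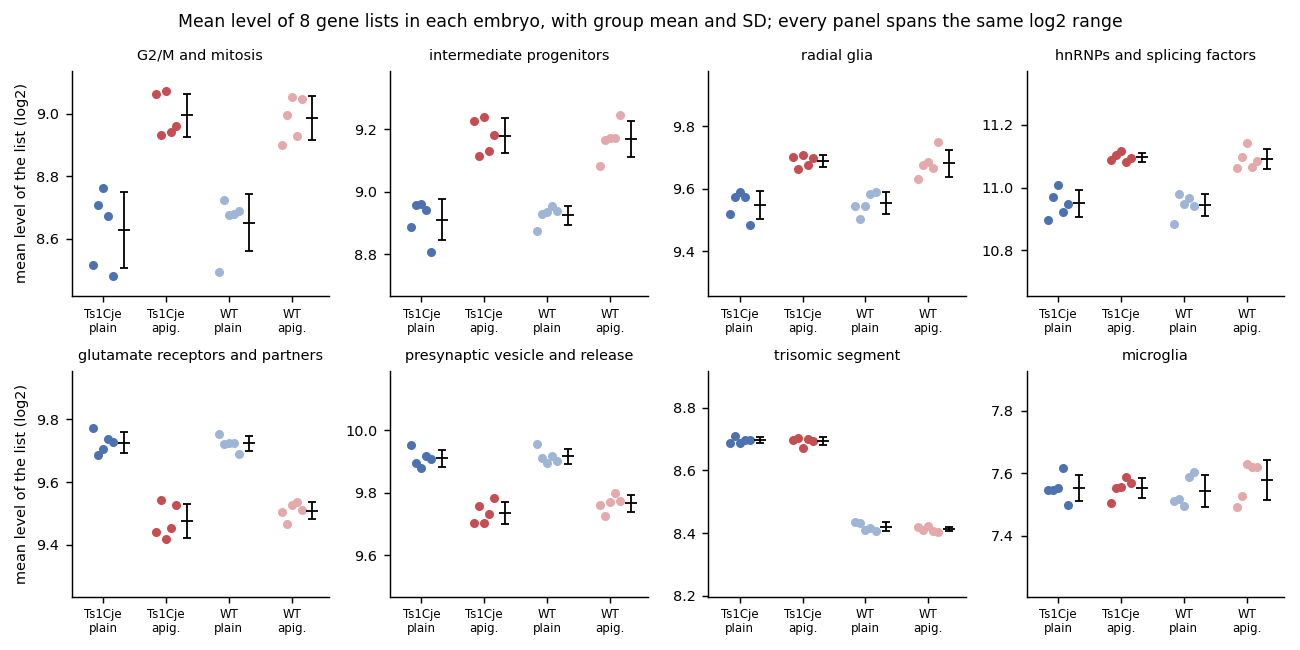
Mean level (log2) of 8 gene lists in each embryo, with group mean and SD (n = 5 per group) and the same span on every vertical axis. In the Ts1Cje embryos the lists of mitosis, progenitors and splicing factors lie higher on apigenin without overlap, the lists of glutamate receptors and presynaptic genes lie lower without overlap, and the trisomic segment and microglia overlap between chows.

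Genes of RNA processing and chromatin that are high in proliferating tissue rose with the progenitor genes. Of 35 hnRNPs and splicing factors 20 rose, 0 fell and 15 did not pass (median 0.16). Hnrnpm, which binds introns to steer splicing, read 11.16, 11.31, 11.32, 11.15 and 11.28 on plain chow against 11.61, 11.63, 11.65, 11.55 and 11.55 on apigenin (0.35 ± 0.04, limma adjusted p = 8e-06), and Srsf1 (0.23), Hnrnpa2b1 (0.28) and Hnrnpa0 (0.25) rose as well. Of 37 chromatin regulators 14 rose and 0 fell (median 0.09), led by the BAF subunit of neural progenitors Actl6a (0.33), the heterochromatin protein Cbx1 (0.27), the remodellers Chd7 (0.32) and Hells (0.39), and Rest (0.25) with its corepressor Rcor2 (0.34). Of 6 measured oncofetal genes, which are on in embryonic and tumour cells, 3 rose. Igf2bp1, an mRNA-binding protein, rose by 0.45 ± 0.05, Igf2bp3 by 0.37 and Hmga2 by 0.33, while Lin28b was at 0.19 (adjusted p = 0.2), Lin28a at -0.04 and Trim71 at 0.0, none past the threshold. Of 19 imprinted growth genes 5 rose, 0 fell and 14 did not pass (median 0.02). Grb10, an adaptor that restrains insulin and growth factor receptors, read 10.74, 10.87, 10.90, 10.74 and 10.76 against 11.27, 11.25, 11.37, 11.23 and 11.20 (0.46 ± 0.05, adjusted p = 6.6e-06), and Mest (0.26), Plagl1 (0.25), Dlk1 (0.20) and Peg3 (0.13) rose with it. Their count was 3 without apigenin replicate 1 or 4 or plain chow replicate 1, 3 or 5. Golm1, a Golgi membrane protein of no list, rose by 0.44 ± 0.05.

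Genes of maturing neurons went the other way, and receptors of both main neurotransmitters fell. Of 11 measured GABA receptor genes 8 fell, 0 rose and 3 did not pass (median -0.31). Gabbr2, a subunit of the metabotropic GABA-B receptor, read 10.89, 10.69, 10.60, 10.83 and 10.84 on plain chow against 9.99, 10.18, 10.12, 10.19 and 10.29 on apigenin (-0.62 ± 0.06, limma adjusted p = 3e-06). Gabra5, a GABA-A subunit that is high in the embryonic brain, read 11.09, 10.82, 10.92, 11.06 and 11.03 against 10.22, 10.42, 10.34, 10.38 and 10.56 (-0.60 ± 0.06, adjusted p = 7.4e-06). The groups did not overlap in either gene. Gabrg3 (-0.49 ± 0.04), Gabra3 (-0.33), Gabrb2 (-0.31), Gabrg1 (-0.38), Gabrb1 (-0.26) and Gabbr1 (-0.18) also fell.

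Of 29 genes of glutamate receptors and their partners 20 fell, 0 rose and 9 did not pass (median -0.29). Grin2d, an NMDA receptor subunit of early neurons, read 8.73, 8.51, 8.53, 8.78 and 8.63 against 8.02, 8.06, 7.99, 8.03 and 8.13 (-0.59 ± 0.06, limma adjusted p = 3e-06). Neto1, a partner of kainate and NMDA receptors, read 10.07, 9.99, 9.98, 9.98 and 9.96 against 9.33, 9.61, 9.22, 9.40 and 9.51 (-0.58 ± 0.06, adjusted p = 6.6e-06). Every apigenin embryo lay below every plain chow embryo in both. The metabotropic receptors Grm3 (-0.64) and Grm5 (-0.34), the NMDA subunits Grin3a (-0.55) and Grin2b (-0.33), the kainate subunits Grik5 (-0.42) and Grik4 (-0.32), and Cacng2 (-0.37), which carries AMPA receptors to the membrane, fell too.

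Ion channels and the machinery on both sides of the synapse fell with the receptors. Of 38 voltage-gated channel genes 24 fell and 0 rose (median -0.22). Hcn2, a pacemaker channel, read 8.59, 8.39, 8.44, 8.38 and 8.49 against 7.83, 7.92, 7.90, 7.89 and 7.94 (-0.56 ± 0.06, limma adjusted p = 6.6e-06), without overlap, and Kcnq5 (-0.55), a potassium channel, Scn3b (-0.38 ± 0.04), a sodium channel subunit, Hcn4 (-0.36), Cacna1g (-0.37) and Cacna1h (-0.31), calcium channels of low threshold, fell beside it. Of 43 presynaptic genes 27 fell, 1 rose and 15 did not pass (median -0.21). Nrxn2, an adhesion molecule of the presynaptic side, read 10.72, 10.60, 10.55, 10.72 and 10.68 against 10.21, 10.29, 10.18, 10.25 and 10.22 (-0.43 ± 0.05, adjusted p = 7.4e-06). The calcium sensors Syt7 (-0.39) and Syt5 (-0.36), the active zone proteins Pclo (-0.32) and Erc2 (-0.26), Stx1a (-0.33), of vesicle fusion, and Sncb (-0.32) fell, and the riser was Unc13b, a vesicle priming factor that passed neither with the 10 Ts1Cje arrays alone in the model nor without plain chow replicate 1, 4 or 5. Of 42 postsynaptic genes 27 fell, 1 rose, which was the scaffold Homer3, and 14 did not pass (median -0.20). Camkv, a kinase-like protein of dendritic spines, read 10.36, 10.22, 10.33, 10.30 and 10.37 against 9.69, 9.83, 9.72, 9.89 and 10.01 (-0.49 ± 0.05, adjusted p = 7.4e-06), and Dlgap1 (-0.58), Shank1 (-0.51), Nlgn2 (-0.40) and Camk2b (-0.39) fell with it.

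Second messenger enzymes and genes that Rest represses fell too. Of 18 cholinergic genes and adenylyl cyclases 10 fell, 0 rose and 8 did not pass (median -0.20). Adcy1, the adenylyl cyclase that calcium activates in neurons, read 9.79, 9.63, 9.60, 9.53 and 9.65 on plain chow against 8.91, 9.10, 8.91, 9.08 and 9.08 on apigenin (-0.62 ± 0.06, limma adjusted p = 3e-06). Ache, acetylcholinesterase, read 8.32, 7.99, 8.08, 8.09 and 8.12 against 7.56, 7.60, 7.46, 7.60 and 7.57 (-0.56 ± 0.06, adjusted p = 7.4e-06). Neither overlapped between chows, and Adcy5 (-0.35), Adcy8 (-0.34), Adcy3 (-0.25) and the muscarinic receptor Chrm2 (-0.32) fell as well. Rest is the repressor that keeps neuronal genes off in progenitors, and of 26 genes known to be under it 16 fell, 0 rose and 10 did not pass (median -0.19), while all 26 had values below 0. They include Scg2 (-0.36), Syp (-0.26) and Chga (-0.27), proteins of vesicles, and Nefl (-0.35), a neurofilament, and some also stand in the synapse lists, such as Stx1a. Rest itself rose, as given with the chromatin genes.

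Of the 15 fallers with the smallest p, 10 stand in none of these lists. Dgkk, a diacylglycerol kinase on the X chromosome, read 8.91, 8.88, 8.66, 8.84 and 8.86 on plain chow against 8.09, 8.19, 7.97, 8.04 and 8.11 on apigenin. It fell by 0.75 (SE 0.06, limma adjusted p = 1.2e-06), with the smallest p of all fallers and no overlap. Kndc1, a brain guanine nucleotide exchange factor, was at -0.54 ± 0.05, Rasgef1a, an exchange factor of Ras-like GTPases, at -0.65 ± 0.06 and Agap2, an Arf GTPase-activating protein, at -0.49 ± 0.05. Trim67, a ubiquitin ligase of neurons (-0.45 ± 0.05), Bend6, a BEN domain protein that opposes Notch (-0.55 ± 0.06), Gramd1b, a sterol transporter (-0.41 ± 0.04), Dtna, alpha-dystrobrevin (-0.34 ± 0.03), Pla2g7, a phospholipase that inactivates platelet-activating factor (-0.54 ± 0.06), and 1700086L19Rik (-0.52 ± 0.05) were the others. These 9 passed with an adjusted p of 3e-06 to 6.6e-06 and without overlap.

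The 10 largest changes past the threshold included further genes of no list. Vsnl1, a neuronal calcium sensor, read 11.18, 10.85, 10.98, 11.30 and 11.08 against 10.09, 10.33, 10.28, 10.17 and 10.50 (-0.80 ± 0.10, limma adjusted p = 3.1e-05). Mal2, a protein of vesicle transport, read 8.98, 8.82, 8.83, 8.99 and 9.08 against 7.83, 8.17, 8.10, 8.17 and 8.53 (-0.78 ± 0.09, adjusted p = 9.6e-06). Necab1, a neuronal calcium-binding protein, read 10.18, 10.04, 10.13, 10.08 and 10.17 against 9.25, 9.61, 9.17, 9.45 and 9.62 (-0.70 ± 0.08, adjusted p = 1e-05). All 3 separated the chows completely. The predicted gene Gm9803 was 1.88-fold lower (-0.91 ± 0.10, adjusted p = 9.6e-06), the largest fall. H2ac11, a replication-dependent histone gene, was dim and read 3.79, 3.87, 3.81, 4.15 and 4.47 against 4.21, 4.97, 4.95, 5.07 and 5.10 (0.84 ± 0.21, adjusted p = 0.0081). Its groups overlapped through apigenin replicate 1.

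Genes of axons and trophic factors changed in part. Of 45 genes of axon guidance and growth 14 fell and 4 rose (median -0.06), with Sema3c (-0.27), a guidance ligand, the semaphorin receptors Plxnd1 (-0.27), Plxna4 (-0.26) and Plxna1 (-0.23), the netrin receptor Unc5a (-0.35) and Mapt (-0.21), the tau protein, lower. Dcc, the attractive netrin receptor, was higher (0.24), as were the ephrin receptors Epha3 (0.26), Epha4 (0.21) and Epha5 (0.19). Of 18 neurotrophins, other growth factors, their receptors and related genes 7 fell, 1 rose and 10 did not pass (median -0.06). The fallers were Pdgfa (-0.35), Ntrk3 (-0.23) and Ntrk2 (-0.17), the receptors of neurotrophin-3 and of brain-derived neurotrophic factor, Igf1 (-0.31), Gfra2 (-0.36) and Ret (-0.22), of GDNF family signalling, and Vegfa (-0.19). The riser was the transcription factor Creb1 (0.20).

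The markers of neuron classes split. Of 19 deep-layer genes 6 rose and 5 fell (median -0.016). Sox5, a factor of early deep-layer neurons, read 10.63, 10.82, 10.81, 10.55 and 10.50 on plain chow against 11.12, 10.99, 11.02, 11.09 and 10.99 on apigenin (0.38 ± 0.06, limma adjusted p = 0.00013). Nfia (0.26) and Nfib (0.13), of the nuclear factor I family, and Fezf2 (0.21), Tbr1 (0.14) and Bcl11b (0.13), which specify these neurons, rose with it. Pcp4 (-0.37), Ldb2 (-0.22), Crym (-0.23), Tafa1 (-0.17) and Tshz3 (-0.13) fell. The fallen count was 2 without plain chow replicate 1 and 3 without plain chow replicate 5 or apigenin replicate 3. Of 17 upper-layer genes 2 rose (Lhx2, also a progenitor gene, 0.18, and Epha3, 0.26) and 4 fell (Mef2c -0.33, Plxnd1, Lmo4 -0.19 and Inhba -0.33). Of 14 Cajal-Retzius genes 2 rose (Nhlh2 0.41 and Ackr3 0.16) and 4 fell (Cacna2d2 -0.38, Calb2 -0.42, Car10 -0.35 and Ndnf -0.22). The defining gene of these cells, Reln, was at -0.03 (adjusted p = 0.689).

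The markers of the ventral forebrain split as well. Of 27 genes of the ganglionic eminence and interneurons 5 rose and 4 fell (median 0.07). Nkx2-1, which patterns the medial eminence, was at 0.35, Gad2, a GABA-synthesising enzyme, at 0.25, and Lhx8 (0.21), Dlx1 (0.15) and Ackr3 also rose. Npy, neuropeptide Y, read 9.79, 9.47, 9.66, 9.86 and 9.77 against 8.96, 9.18, 9.18, 9.11 and 9.24 (-0.57 ± 0.07, limma adjusted p = 3.2e-05), and Calb1 (-0.24), Slc32a1 (-0.21), the vesicular GABA transporter, and Gad1 (-0.10) fell. Of 20 striatal genes 7 fell and 2 rose (median -0.09). Penk, the enkephalin precursor, read 9.42, 9.23, 9.33, 9.46 and 9.57 against 8.64, 8.80, 8.77, 8.81 and 9.00 (-0.60 ± 0.07, adjusted p = 1.7e-05). The dopamine receptor Drd2 (-0.44), the retinoid receptor Rxrg (-0.42), Rgs9 (-0.31), Foxp1 (-0.25), Ikzf1 (-0.23) and Pde10a (-0.19) fell with it, and the risers were Bcl11b and Isl1 (0.17), of which 1 passed without apigenin replicate 1, 2 or 4 or plain chow replicate 1, 4 or 5.

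Genes of the glial lineages fell in part. Of 16 genes of oligodendrocyte precursors 6 fell, 0 rose and 10 did not pass (median -0.12), which were Omg (-0.45), Olig1 (-0.38), Cspg5 (-0.33), Gpr17 (-0.30), Lhfpl3 (-0.27) and Bcan (-0.23). Pdgfra, the receptor that defines these cells, was at -0.12 (adjusted p = 0.0747). Of 23 early astrocyte genes 8 fell and 4 rose (median -0.08). Slc4a4, a bicarbonate transporter, read 9.02, 8.95, 8.97, 8.91 and 9.06 against 8.35, 8.70, 8.38, 8.52 and 8.55 (-0.48 ± 0.05, limma adjusted p = 1e-05). The water channel Aqp4 (-0.50), Tnc, Sparcl1 (-0.34), Clu (-0.32), Apoe (-0.25), Aldh1l1 (-0.25) and Cst3 (-0.23) also fell. Fgfr3 (0.34), Sox9 (0.23), Aldoc (0.22) and Nfia rose. Radial glia also express these 4 genes, as they do Tnc, which fell.

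Markers of other tissues that a dissection could carry, and of microglia and further parts of the forebrain itself, stand beside the results above. They are to be read against the 8.09% and 8.17% of all genes. Of 17 genes of the hindbrain and spinal cord and of 17 genes of skeletal muscle 0 rose and 0 fell (limma, adjusted p under 0.05), and the lists' mean levels overlapped between chows, at 6.35 to 6.59 against 6.35 to 6.55 and at 6.88 to 7.09 against 6.96 to 7.06. Of 17 diencephalon genes 1 rose and 1 fell, Nkx2-1 and Calb2, both given above. Of 24 microglia genes 1 rose, Sall1 (0.25), which neural progenitors also express, and 0 fell, with levels of 7.50 to 7.62 and 7.50 to 7.59. Of 18 choroid plexus genes 2 rose, the cilia factor Foxj1 (0.16) and Clic6 (0.25), and 0 fell. The choroid plexus count was 0 without apigenin replicate 1 or without plain chow replicate 3 or 4. Of 18 genes of the hippocampus and hem 5 rose and 3 fell (median 0.12). The risers were Wnt8b, Rspo3, Wnt5a (0.22), Rspo1 (0.23) and Lhx2. The fallers were the kainate receptor genes Grik1 (-0.31) and Grik4 and the mineralocorticoid receptor Nr3c2 (-0.35).

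Vessels and meninges had more fallers than risers. Of 31 genes of endothelium and pericytes 6 (19.4%) fell, 1 (3.23%) rose and 24 did not pass, beside 8.17% lower and 8.09% higher of all genes. The fallers were Anpep (-0.39), Slco1c1 (-0.37), a transporter of the blood-brain barrier, Flt1 (-0.27), Eng (-0.24), Ocln (-0.21) and Kcnj8 (-0.19), and the riser was Abcg2 (0.19). Without apigenin replicate 3 or 5 or plain chow replicate 1 or 4, 0 rose. The fallers numbered 4 to 7 without any 1 array, and in WT 2 of the 31 genes fell and 2 rose. The list's mean level lay at 8.58 to 8.66 on plain chow and 8.51 to 8.59 on apigenin. Of 33 genes of meninges and matrix 4 (12.1%) fell, 1 (3.03%) rose (Zic1, 0.17) and 28 did not pass. The levels were 8.98 to 9.06 and 8.88 to 9.00. The fallers of this list numbered 3 to 5 without any 1 array, and in WT 2 of the 33 genes fell and 1 rose. Ptgds, a prostaglandin D synthase of the meninges, read 10.89, 10.58, 10.14, 10.76 and 10.76 against 9.33, 10.32, 9.84, 9.89 and 9.57 (-0.84 ± 0.15, limma adjusted p = 0.00069). The values of apigenin replicate 2 and plain chow replicate 3 overlapped. The other fallers were Ogn (-0.43), Mgp (-0.23) and Fbln2 (-0.16). The part of tissue composition in the changes of neuronal and progenitor genes was not tested.

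In most pathways for which apigenin is known outside the embryo the shares called lay near or below those of all genes. Flavones bind the aryl hydrocarbon receptor, and of 10 genes of that receptor and its targets 0 rose and 1 (10%) fell, against 8.09% and 8.17% of all genes. The faller was Ahr itself, at 8.22, 8.16, 8.16, 8.11 and 8.30 on plain chow against 7.99, 8.01, 7.88, 8.11 and 8.10 on apigenin (-0.17 ± 0.05, limma adjusted p = 0.035), and it no longer passed by the methods' t-test or without any of 5 arrays, which were apigenin replicates 1, 2 and 3 and plain chow replicates 1 and 5. The classic targets Cyp1a1 (-0.10), Cyp1b1 (0.012) and Nqo1 (-0.26, adjusted p = 0.0578) did not pass. Of 28 genes of NRF2, glutathione and thioredoxin 2 (7.14%) rose, Prdx2 (0.20) and Txnrd1 (0.13), and 1 fell, Gstp1 (-0.29). The risers numbered 1 without apigenin replicate 1, 3 or 5 or plain chow replicate 1, 4 or 5, and the fallers numbered 0 without apigenin replicate 1, 3 or 4 or plain chow replicate 4 and 3 without apigenin replicate 5. Of 44 interferon response genes 0 rose and 1 (2.27%) fell, Rsad2 (-0.31, lost without apigenin replicate 1, 2 or 3 or plain chow replicate 1, 2, 3 or 4), and of 39 genes of NF-kB and cytokine signalling 4 (10.3%) rose and 1 (2.56%) fell. The interferon list was dim, with a mean level of 6.79 to 6.89 on either chow, and so was the receptor list, at 6.89 to 7.00, below the array medians. The NF-kB risers were Traf6 (0.17), Traf2 (0.17), Ikbkb (0.15) and Ikbkg (0.14), of the signal to the kinase, and the faller was Il10rb (-0.21). The NF-kB risers numbered 0 without apigenin replicate 1, 1 without plain chow replicate 4 or 5, and 2 without plain chow replicate 1 or 3 or apigenin replicate 3 or 5.

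Genes of lipid synthesis fell in part. Scd1, the desaturase that makes oleic acid, read 9.85, 9.46, 9.43, 9.83 and 9.78 on plain chow against 8.93, 9.01, 8.79, 8.92 and 8.97 on apigenin (-0.75 ± 0.08, limma adjusted p = 7.4e-06), without overlap. Of 24 genes of fatty acid synthesis 8 fell and 1 rose (median -0.06). The fallers included Fasn (-0.26), the fatty acid synthase, Fads3 (-0.30), Me1 (-0.31) and Elovl4 (-0.22). The riser was Acly (0.11). Among the fits that left out 1 array, it passed only in those without apigenin replicate 5 or plain chow replicate 3. The fallers numbered 4 without apigenin replicate 1 or 4 or plain chow replicate 4, and 5 without apigenin replicate 2 or 3. Of 18 genes of cholesterol synthesis 3 fell, Nsdhl (-0.17), Fdps (-0.16) and Fdft1 (-0.15), and 1 rose, Stard4 (0.19), a sterol carrier that no longer passed in 7 of the 10 fits without 1 array (all but those without apigenin replicate 1 or 4 or plain chow replicate 2). In glycolysis and the response to low oxygen 4 of 30 rose, Hk2 (0.31), Ddit4 (0.27), Pkm (0.24) and Aldoc (0.22). In the same list 7 fell, among them the oxygen-sensing hydroxylase Egln3 (-0.44) and the neuronal glucose transporter Slc2a3 (-0.27). These 7 became 4 without apigenin replicate 1 and 3 without apigenin replicate 3 or plain chow replicate 1. Of 65 genes of oxidative phosphorylation 2 rose, Atp5a1 (0.15) and Sdha (0.10), of which 1 was left without apigenin replicate 3 or 5 or plain chow replicate 1 or 4, and 4 fell, Ndufa7 (-0.28), Uqcrq (-0.24), Cox4i1 (-0.19) and Ndufa13 (-0.16).

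Among p53 targets and genes of endoplasmic reticulum stress and heat shock the shares called lay near those of all genes. Of 22 p53 targets 2 (9.09%) rose, Trp53inp1 (0.35) and Gadd45a (0.15), and 1 fell, Cdkn1a. Gadd45a lost the call without any 1 array other than apigenin replicate 2 or plain chow replicate 1. Of 24 genes of endoplasmic reticulum stress 3 (12.5%) rose (Pdia6 0.16, Pdia4 0.15 and Sdf2l1 0.15) and 0 fell, and of 14 heat shock genes 1 (7.14%) rose (Hsph1 0.20) and 1 fell (Hspe1 -0.16, lost without apigenin replicate 2 or plain chow replicate 3 or 4). Immediate early genes went both ways: of 23, 5 (21.7%) rose, Ier5 (0.39), Btg2, Ier2 (0.35), Jun (0.17) and Dusp1 (0.16). Of the same genes 4 (17.4%) fell, Npas4 (-0.33), Nr4a3 (-0.27), Fosl2 (-0.19) and Nr4a1 (-0.15). Of these, Npas4 and the Nr4a genes are induced by activity in neurons. The risers numbered 3 without apigenin replicate 1 or 5 or plain chow replicate 1 or 5. Of 31 genes of ribosome biogenesis 7 (22.6%) rose, led by the snoRNP protein Gar1 (0.35), and 1 (3.23%) fell, Nop10 (-0.27). Of 19 measured ribosomal protein genes 3 (15.8%) rose (Rpl37 0.28, Rpl22 0.16 and Rpl8 0.14). Of the same genes 1 (5.26%) fell (Rps15 -0.24, lost without apigenin replicate 2, 3 or 5 or plain chow replicate 1 or 4).

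The array also carries probe sets for 283 miRNA loci, of which 12 rose (4.24%) and 7 fell (2.47%), beside 8.09% and 8.17% of all genes. Which form of the RNA such a probe set reads, the host transcript, the hairpin or the mature miRNA, is not given in the sources used here. The loci whose sequences are shown were chosen after their values were seen. They lie in 3 genomic clusters, and the mature sequences (RefSeq, GRCm38.p6) are shown to set the members' seeds side by side, with bases 2 to 8, the seed that pairs with targets, in capitals.
miR-18a-5p: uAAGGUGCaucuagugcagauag
miR-20a-5p: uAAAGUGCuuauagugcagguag
miR-19b-3p: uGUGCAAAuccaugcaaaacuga
miR-337-3p: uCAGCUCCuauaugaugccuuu
miR-665-3p: aCCAGGAGgcugaggucccu
miR-431-5p: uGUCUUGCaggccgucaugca
miR-341-3p: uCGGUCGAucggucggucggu
miR-23b-5p: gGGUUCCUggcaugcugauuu
miR-27b-3p: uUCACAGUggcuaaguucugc
The first 3 come from the miR-17 cluster on chromosome 14, a growth-promoting cluster that MYC and E2F factors switch on. The locus Mir18 rose by 0.41 ± 0.10, Mir19b-1 by 0.39 ± 0.12 and Mir20a by 0.26 ± 0.09 (limma adjusted p = 0.0059, 0.034 and 0.039). The seeds of miR-18a-5p and miR-20a-5p are alike but not the same, and that of miR-19b-3p differs from both. The measured neighbours Mir17 (0.06) and Mir19a (0.24, adjusted p = 0.239) did not pass. The next 4 sequences come from the imprinted region of chromosome 12 beside Dlk1. Mir337 fell by 0.46 (SE 0.09, adjusted p = 0.0012), and Mir341 (-0.29), Mir665 (-0.25) and Mir431 (-0.20) fell as well, while 35 further measured loci within 300 kb of Mir337 did not pass. Of the 39 in all, 13 were above and 26 below 0, with a median of -0.08. The last 2 come from the cluster on chromosome 13, where Mir23b (-0.23) and Mir27b (-0.29) fell and Mir24-1 (-0.12, adjusted p = 0.476) did not pass. Mir19b-1, Mir20a, Mir431, Mir23b and Mir27b each lost the call when some of the 10 arrays were left out singly, and Mir18, Mir337, Mir665 and Mir341 kept it. The loci called outside the 3 clusters are left out of the counts of named genes given elsewhere. Mirlet7f-1 (0.41), Mir181b-1 (0.35), Mir15a (0.34), Mir30e (0.29), Mir423 (0.22), Mir202 (0.21), Mir670 (0.20), Mir677 (0.19) and Mir707 (0.18) rose, and Mir138-2 (-0.25) fell.

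Genes of the trisomic segment showed no common shift. Of 68 listed genes of the trisomic segment, all measured, 6 rose, 8 fell and 54 did not pass, near the 8.09% and 8.17% of all genes, with a median of 0.02. The mean level of the segment was 8.69, 8.71, 8.69, 8.70 and 8.70 on plain chow against 8.70, 8.70, 8.67, 8.70 and 8.69 on apigenin. Dyrk1a, a kinase often studied in Down syndrome, read 11.49, 11.47, 11.43, 11.51 and 11.47 against 11.46, 11.51, 11.45, 11.46 and 11.51 and did not pass (log2 fold change 0.0, SE 0.03, limma adjusted p = 0.95).

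Dscam, a cell adhesion molecule of neurite spacing, read 10.99, 10.87, 10.87, 11.08 and 10.98 against 10.53, 10.61, 10.53, 10.48 and 10.59 (-0.41 ± 0.05, limma adjusted p = 4.7e-05). Kcnj6, the GIRK2 potassium channel, read 7.40, 7.44, 7.36, 7.53 and 7.36 against 7.09, 7.17, 7.06, 7.01 and 7.10 (-0.33 ± 0.05, adjusted p = 7.1e-05). Both separated the chows. Pcp4 (-0.37 ± 0.06), Olig1 (-0.38 ± 0.06), B3galt5 (-0.27), Il10rb, Ets2 (-0.21) and Ifngr2 (-0.15), a subunit of the interferon gamma receptor, were the other fallers. The risers were Mis18a, which loads Cenpa on centromeres (0.38 ± 0.06, 8.37 to 8.68 against 8.75 to 8.92), Clic6, Gart (0.19), of purine synthesis, Brwd1 (0.19), Hunk (0.17) and the nucleosome-binding protein Hmgn1 (0.11). They numbered 3 without apigenin replicate 1 or 2 or plain chow replicate 1 or 4, while the fallers numbered 7 or 8 without any 1 array.

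**Figure D4:**
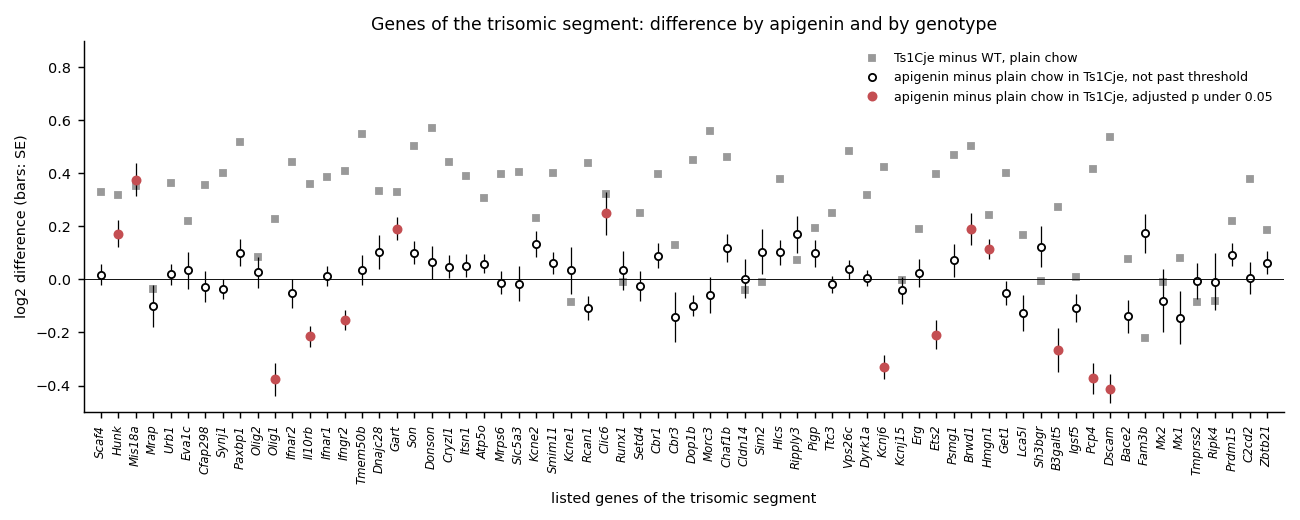
Log2 difference by apigenin in Ts1Cje embryos (circles with SE, filled where the adjusted p is under 0.05) and by genotype on plain chow (grey squares) for the 68 listed genes of the trisomic segment. Of the circles, 6 filled ones lie above 0 and 8 below, and the 54 open ones lie around 0, while most squares lie above 0.

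Outside the segment 21 genes differed by genotype on plain chow, and 7 of these also passed by apigenin in Ts1Cje embryos. Both comparisons use the same Ts1Cje plain chow arrays, which by itself favours opposite signs, so the values are only set side by side. Cav1, caveolin-1 of membrane pits, was at 0.26 by genotype and -0.32 by apigenin, Dnajc4 at 0.27 and -0.17, Aqp11 at 0.23 and -0.15, Dnajc5b at -0.32 and 0.22, Smim20 at -0.27 and 0.16, Ddit4, an inhibitor of mTORC1, at -0.30 and 0.27, and Cpne6, a calcium-binding protein of neurons, at -0.33 and -0.36. The 5 called genes of distal chromosome 12, beside the translocation, did not pass by apigenin: Dnah11, at 3.54 by genotype, was at 0.01, Itgb8 at -0.71 and 0.13, Sp4 at -0.41 and 0.005, Tmem196 at -0.50 and -0.07, and Sp8 at -0.30 and 0.07. The other 9 that did not pass were Sod1 (0.35 and -0.11), Wdr17 (0.28 and -0.12), Gngt2 (-0.34 and 0.07), Rfx5 (-0.30 and 0.09), Olfr61 (0.19 and -0.06), Gk5 (0.27 and -0.06), Clcn2 (0.18 and -0.07), Tpmt (0.30 and 0.14) and Tsga10 (0.31 and -0.0014).

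Most genes that passed in Ts1Cje embryos moved the same way in WT. In WT 1308 genes (6.46%) were higher and 1184 (5.85%) lower on apigenin. Of these, 1021 were higher and 997 lower in both genotypes, together 61.3% of the genes that passed in Ts1Cje and 81% of those that passed in WT, and 1 went opposite ways. The 2 comparisons share no arrays, but 1 model gave both the same estimate of spread for each gene. Genes of small spread are favoured in both, which by itself raises the overlap of the calls. Some WT and Ts1Cje embryos on the same chow have neighbouring numbers in the titles, however, so embryos of both genotypes may be littermates. The labels name no litter, and this was not tested. A difference between the chows in litter or stage could therefore be shared by both comparisons, and their likeness does not set chow apart from it. The log2 fold changes correlated at r = 0.726 over all 20239 genes and at 0.961 over the genes that passed in Ts1Cje, a description over genes of the same arrays, and 99.1% of the latter had the same sign in WT. In WT the G2/M list had 55 risers and 0 fallers of 59, with a median of 0.35, the glutamate receptor list 0 and 16 of 29 (-0.21), and the intermediate progenitor list 16 and 1 of 24 (0.24). Hbb-y rose by 2.75 ± 0.24 in WT, Gadd45g by 0.62 ± 0.05, and Scd1 was at -0.75 ± 0.08 there, as in Ts1Cje.

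**Figure D5:**
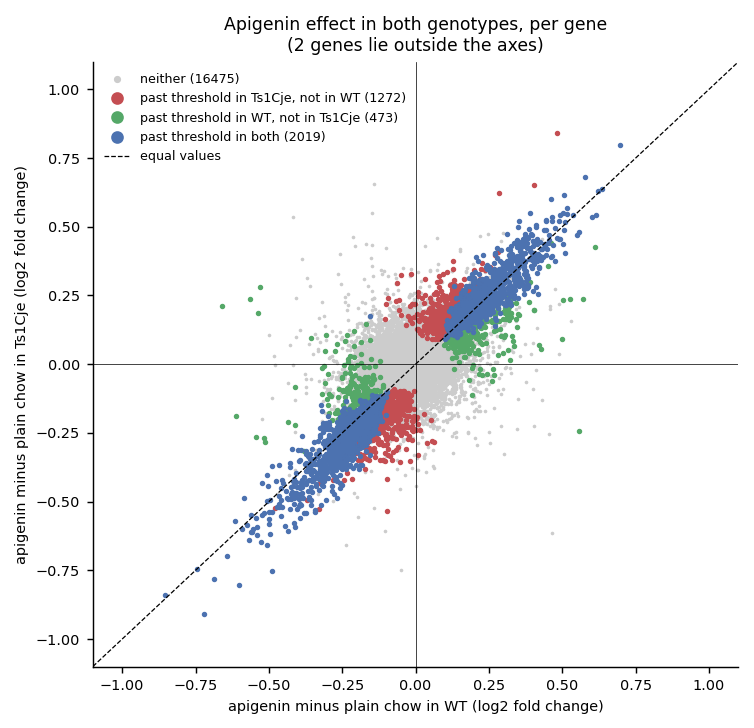
Log2 fold change of each gene by apigenin in WT (horizontal) and in Ts1Cje embryos (vertical), with equal values on the dashed line. Genes past an adjusted p under 0.05 in both genotypes lie along the line; 2 genes lie outside the axes, Hbb-y (2.75 and 2.81) and Tfap2b, which varied widely within groups and passed in neither.

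The test of the difference between the genotypes called 0 genes (0%) by limma, with 533 (2.63%) at an unadjusted p under 0.05, and 1 gene by the methods' t-test. Where no gene differs, a cutoff of 0.05 alone passes a larger share, so the 533 are not read as differences. The median SE of the difference between the genotypes was 0.087 on the log2 scale, so differences of that size were not detectable gene by gene. The 0 therefore does not show that the genotypes responded alike. The 5 genes with the smallest p all passed in WT, and 1 of them, Trarg1, passed in Ts1Cje. Olfr61, an olfactory receptor gene and the 1 gene of the methods' t-test (adjusted p = 0.0451), was at -0.06 ± 0.04 in Ts1Cje and 0.26 ± 0.04 in WT (limma adjusted p of the difference 0.143). Pidd1, of p53-driven cell death, was at -0.04 and 0.24, Gngt2 at 0.07 and -0.27, and Cfap70, of cilia, at 0.15 and -0.17. Trarg1, a regulator of glucose transporter traffic, was the gene called in opposite directions, at 0.18 ± 0.05 in Ts1Cje and -0.16 ± 0.05 in WT, and it no longer passed in Ts1Cje without plain chow replicate 1 or apigenin replicate 1. Of the 15 risers and 15 fallers with the smallest p in Ts1Cje, Dgkk had the smallest p for the difference, with -0.75 against -0.49 ± 0.06 in WT (unadjusted p = 0.0072), which failed the adjustment. For Kcnj6 the values were -0.33 and -0.16 (unadjusted p = 0.015), and this failed it too.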

How the data were processed

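Forebrain RNA of 20 embryos was measured on Affymetrix Mouse Gene ST 1.0 arrays, grouped by the labelled genotype and treatment. The authors deposited 1 log2 level for each probe set, and the submitters' processing notes name RMA. The version, chip definition and build were not given in the sources used here. RMA equalises the arrays' distributions and compresses low values, so changes of dim genes are understated. Of 21225 probe sets, 20239 had 1 symbol in a platform gene table, 0 had several and 986 were unnamed and left out.

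All 20 arrays entered 1 model of 4 group means, fitted in R 4.3.3 with limma 3.58.1 (lmFit, eBayes), two-sided, with Benjamini-Hochberg adjustment over all genes and a threshold of 0.05. A value given as ± beside a log2 fold change is its SE, with n = 5 per group. Promoters and miRNAs were matched by symbol to RefSeq tables. The script was tested on simulated data. The 55 gene lists and the comparison itself were chosen with earlier results of these data known, so no list was tested as a set. Named genes were the 15 risers and 15 fallers with the smallest p, the 10 largest changes, list members with the smallest p (up to 6) or needed to account for a small count, the 5 smallest p of the interaction, all genes called by genotype outside the segment, and any globin or segment gene. Defining markers and miRNA loci were chosen beyond this rule. Alternatives were other thresholds, the methods' test, the compared groups alone, filters on dim genes, renewed scaling, array weights, covariates, blocks and leaving out each array.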

Additional observations from a re-analysis of the deposited data

Results flagged for a closer look

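In 832 groups of 5 embryos, 1 for each named gene or list and diet, the highest or lowest embryo stood apart from the other 4 in 32 (3.85%), where its gap to the nearest exceeded 0.71 of the group's range. Chance alone gives about 1 in 20 such groups. All values are log2 levels in Ts1Cje embryos.

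On plain chow, replicate 5 was the low embryo for the mean levels of 3 lists. Its hedgehog and Wnt mean was 8.66 against 8.72 to 8.74 in the others, its axon guidance and growth mean 10.36 against 10.4 to 10.42, and its hippocampus and hem mean 8.24 against 8.3 to 8.31. It was also lowest for Nr4a3 (8.83 against 9.03 to 9.1), Mir665 (7.79 against 7.96 to 7.99) and Gart (9.7 against 9.74 to 9.75), and highest for Sparcl1 (11.65 against 11.46 to 11.51) and Wdr17 (8.94 against 8.89). Replicate 2 was highest for Ackr3 (7.83 against 7.61 to 7.65), Stard4 (8.2 against 7.94 to 7.98), Rhbdl3 (8.2 against 8.03 to 8.07) and Pcnt (8.16 against 8.05 to 8.07), and lowest for Rspo1 (7.45 against 7.58 to 7.62). Replicate 3 was lowest for Dgkk (8.66 against 8.84 to 8.91), Drd2 (8.13 against 8.3 to 8.36) and Peg3 (10.89 against 10.96 to 10.98). Replicate 1 was highest for Neto1 (10.07 against 9.96 to 9.99), Me1 (9.27 against 9.12 to 9.15) and Smim20 (7.57 against 7.4 to 7.43). Replicate 4 was highest for Kcnj8 (9.04 against 8.68 to 8.78) and Clcn2 (9.43 against 9.33 to 9.35).

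On apigenin, replicate 1 was lowest for the histone gene H2ac11 (4.21 against 4.95 to 5.1) and highest for Foxj1 (7.78 against 7.63 to 7.66). Replicate 2 was highest for Kif14 (7.05 against 6.8 to 6.84). Replicate 3 was lowest for Nr4a3 (8.39 against 8.74 to 8.86), Ache (7.46 against 7.56 to 7.6) and the trisomic segment mean (8.67 against 8.69 to 8.7). Replicate 4 was lowest for Mis18a (8.75 against 8.87 to 8.92), Rfx5 (8.01 against 8.18 to 8.23) and Ikbkg (8.12 against 8.17 to 8.18). Replicate 5 was highest for Fdft1 (11.01 against 10.76 to 10.79) and Elovl4 (10.26 against 10.06 to 10.11). What set these embryos apart was not tested.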

How the results depend on the processing

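The count of 3291 genes changed in Ts1Cje became 1850 at an adjusted p under 0.01, 1016 with a minimum of 1.2-fold and 1332 by the methods' t-test at the methods' thresholds, all stricter by construction. Without any 1 array it lay between 2539 and 3254. The WT count of 2492 became 1227, 782 and 865 under the same 3 rules, 1641 by the methods' t-test with an adjusted p under 0.05, and 1574 where the model held the WT arrays alone, while the Ts1Cje count was 3189 with the Ts1Cje arrays alone. The cause of the WT drop was not tested. Without any 1 array it lay between 1906 and 2508. The 0 genes of the difference between genotypes became 1 by the methods' t-test, at either threshold. The count of 63 genes by genotype on plain chow kept within 1.5 times under its alternatives, which were added after the data were seen. No paired analysis was possible because the labels carry no replicate numbers that groups share. Among the 325 named genes past the threshold, 75 lost the call under at least 1 alternative, 49 of them by the methods' t-test, and 0 turned direction. The cause was not tested. Of the 4048 dimmest genes, 20% of those tested, 61 (1.51%) passed, and whether changes there were absent or not detectable was not tested.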
